A study of Mus musculus with 4 samples.

Results

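The genes described here build glycosaminoglycan chains and sulfate them. The 36 genes were listed by their place in the pathway, with earlier results of these data known. A gene counted as measured where a probe set of the array was annotated to its symbol alone. By this rule 35 of the 36 were measured, each by 1 probe set, among 19938 genes tested. Ndst1, an N-deacetylase and N-sulfotransferase of heparan sulfate, is not analysed here. The genes fall into 4 steps: 6 assemble the linker, 14 build and sulfate chondroitin, 7 supply precursors and 8 of the measured genes build or edit heparan sulfate.

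Glycosaminoglycans are long sugar chains carried by the core proteins of proteoglycans. A short linker that starts with xylose is placed on a serine of the core protein, and the next sugar added decides whether the chain becomes chondroitin sulfate or heparan sulfate. Chondroitin sulfate on aggrecan holds water in cartilage, and heparan sulfate binds growth factors at the cell surface. Both need activated sugars and the activated sulfate PAPS, which are made in the cytoplasm and carried into the Golgi.

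RNA came from ATDC5 cells, a mouse chondroprogenitor line, on 1-colour whole-transcript arrays with 1 array per sample. The 2 day 15 samples had been cultured for 15 days with insulin, transferrin and selenite added to the medium. The 2 day 0 samples were undifferentiated cells in the basal medium, and this medium (DMEM/F12 with serum, glutamine and ascorbic acid) was common to both groups. No sample was cultured for 15 days without the supplement, so time in culture, the supplement and differentiation cannot be told apart. The labels name no separate cultures for the replicates. The p-values therefore reflect the spread of these 4 samples alone, and that spread may be technical. In bulk RNA a change in the share of cells and a change in RNA per cell cannot be told apart.

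Values are log2 of the authors' processed intensity plus 1, quantile normalized over the 4 arrays, and in each pair of values replicate 1 stands first. Of 9 cartilage markers 6 were higher at day 15 (limma adjusted p below 0.05) and none was lower. By the same rule 1.30% of all genes were called as higher and 0.411% as lower. All 12 macrophage and osteoclast markers on the list were measured and none was called. Their summed linear intensity was 10781 and 3247 at day 15, against 10123 and 2152 at day 0, so it was higher in replicate 1 on both days, and no marker was at 0. C1qb, a complement subunit made by macrophages, was 11.11 and 5.80 at day 15, against 11.36 and 6.09 at day 0. The part of this difference between replicates in the results below was not tested. Of 5 measured osteoblast markers 1 was called, Ibsp, as higher, and the list's sum was 25972 and 29681 at day 15, against 9884 and 10196 at day 0. Of 6 adipocyte markers none was called, and their sum was 2444 and 2487 at day 15, against 3804 and 4351 at day 0. Neither sum overlapped between the days. Pparg, a regulator of fat cell formation, was 10.61 and 10.60 at day 15, against 11.47 and 11.68 at day 0. It made up most of the adipocyte sum on each array. Its difference was -0.97 log2, and those of the other adipocyte markers ran from -0.25 (Fabp4) to -0.03 (Lep). The part of these lists in the results was not tested. Marker sums for muscle and endothelium differed little between arrays (1101 to 1199 at day 15 against 1113 to 1210 at day 0 for muscle, and 700 to 718 against 655 to 708 for endothelium).

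Of the 35 genes 2 rose, Xylt1 and Csgalnact1, which each begin a stage of chain building, and none fell. A gene was called at a limma adjusted p below 0.05 over all genes tested, by which 1.72% of all genes were called, 1.30% as higher and 0.411% as lower at day 15. In 18 of the 35 both day 15 arrays lay above both day 0 arrays, which held for 22.3% of all genes. In 6 both lay below, which held for 17.8% of all genes, and in the other 11 the days overlapped. An unadjusted limma p below 0.05 was found for 11 of the 35 (9 higher, 2 lower) and for 12.2% of all genes. The median difference was 0.17 log2 for the 35 genes and 0.02 log2 for all genes. Of the 35 genes 31 lay above the median level of all genes, so the shares over all genes include more dim genes and are not matched for level.

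**Figure D1:**
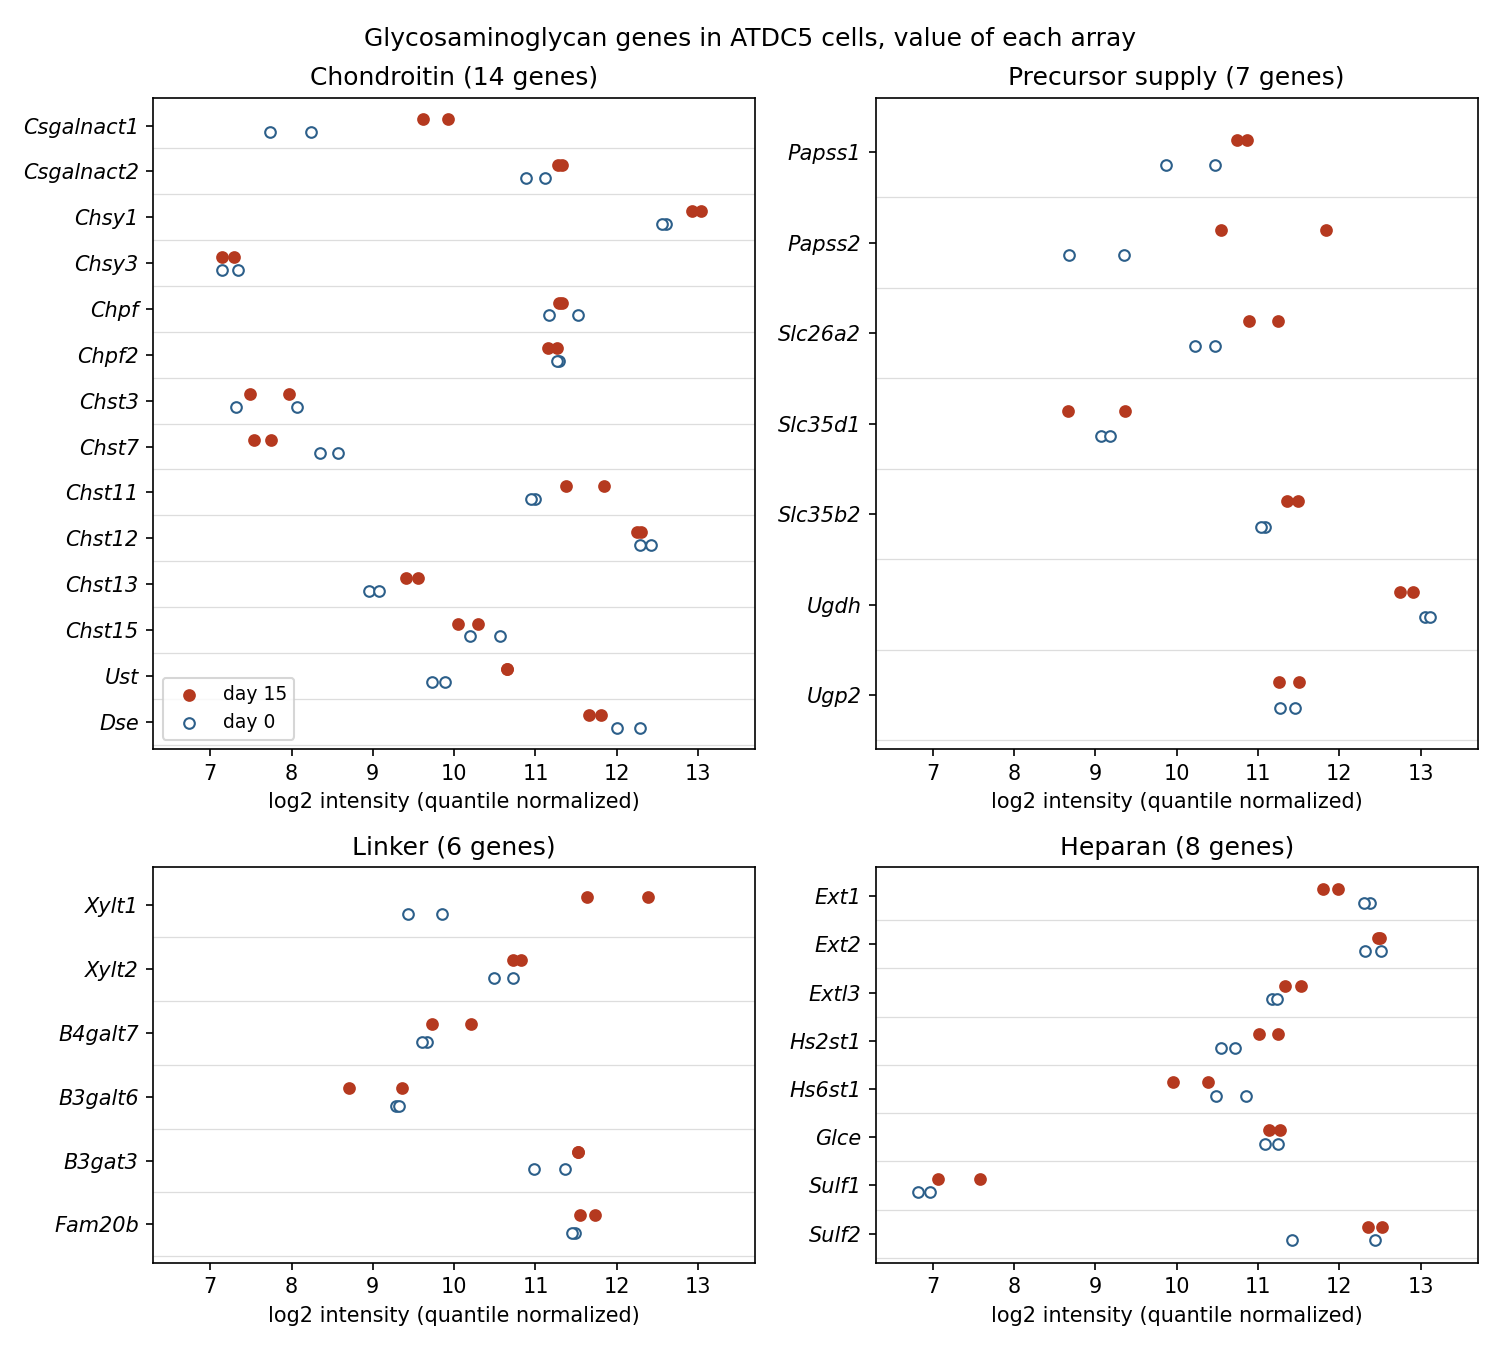
Log2 intensity (quantile normalized) of the 35 genes on each array, by step, with filled circles for the 2 day 15 arrays and open circles for the 2 day 0 arrays. Probe sets differ in brightness, so positions are to be compared within a gene only. Xylt1 (11.63 and 12.39 at day 15, against 9.86 and 9.44 at day 0), Csgalnact1 and Papss2 show the widest separation of the days.

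The linker is built in a fixed order, and 1 of its 6 genes was called, where 1.72% of all genes were called. Xylt1 moves xylose onto the core protein, and in humans its loss causes a skeletal dysplasia with short stature. Its probe set (10556598) gave 11.63 and 12.39 on the day 15 arrays, against 9.86 and 9.44 on the day 0 arrays. The days did not overlap, and day 15 replicate 2 was the brightest of the 4. The difference was 2.36 ± 0.30 log2 (SE), which is 5.15-fold (limma adjusted p = 0.0269).

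Xylt2, the second xylosyltransferase, was 10.82 and 10.72 at day 15, against 10.72 and 10.49 at day 0. Its difference was 0.17 log2 with a 95% interval of -0.27 to 0.60 (limma adjusted p = 0.855), so a change of 2-fold lies outside the interval. The galactosyltransferase B4galt7, which adds the second sugar, was 10.20 and 9.73 at day 15 and 9.66 and 9.60 at day 0. B3galt6, which adds the next galactose, was the one linker gene with a negative difference (-0.27 log2), and its days overlapped.

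B3gat3, which closes the linker with glucuronic acid, was 11.52 on both day 15 arrays, against 10.98 and 11.36 on the day 0 arrays. The difference was 0.35 ± 0.19 log2 (SE; limma adjusted p = 0.598). Fam20b, the kinase that phosphorylates the xylose, differed by 0.17 log2. The 5 linker genes other than Xylt1 thus lay between -0.27 and 0.35 log2 and none was called. In 5 of the 6 linker genes both day 15 arrays lay above both day 0 arrays, which held for 22.3% of all genes. The median of the step was 0.25 log2.

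Chondroitin chains are started by a transferase that adds the first N-acetylgalactosamine to the finished linker. Csgalnact1 is one of a pair of such enzymes, and mice without it make less chondroitin sulfate in cartilage. Its probe set (10579012) was 9.62 and 9.93 at day 15, against 8.23 and 7.74 at day 0. The days were well apart, with a gap wider than the difference within either pair. The rise was 1.78 ± 0.23 log2 (SE), or 3.44-fold (limma adjusted p = 0.0294). Csgalnact2, the other starter, was 11.33 and 11.27 at day 15, against 10.89 and 11.12 at day 0, a difference of 0.30 log2 (95% interval -0.13 to 0.73).

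The calls of these genes were lost in some fits that left out 1 array. Over all alternatives the difference stayed at 1.99 to 2.74 log2 for Xylt1 and 1.54 to 2.03 log2 for Csgalnact1. A fit on fewer arrays also has less power, so a lost call need not mean that it rested on that array. Xylt1 was not called without day 0 replicate 2 (limma adjusted p = 0.0556) or without day 15 replicate 2 (0.0510). Csgalnact1 was not called without day 0 replicate 2 (0.0674), without day 15 replicate 1 (0.0749) or without day 15 replicate 2 (0.0938). Of the 35 genes 0 were then called when replicate 2 of either day was left out, and 2 when day 15 replicate 1 was, where Papss2 took the place of Csgalnact1. Both calls were also lost when all 35512 probe sets were tested together (0.146 and 0.147).

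Elongation of the chain showed smaller differences. Chsy1, a chondroitin synthase, was 12.92 and 13.03 at day 15, against 12.60 and 12.56 at day 0 (0.40 ± 0.16 log2, SE; limma adjusted p = 0.418). Its relative Chsy3 had overlapping days near the dim end of the scale (7.30 and 7.14 at day 15, 7.34 and 7.15 at day 0). The polymerizing partners Chpf and Chpf2 differed by -0.04 and -0.07 log2. The 95% intervals of these 4 genes all lay within 1 log2 of 0.

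Sulfation decides the character of the chondroitin chain, and its enzymes differed in both directions without a call. Ust, which sulfates uronic acid at the 2-O position, was 10.65 on both day 15 arrays, against 9.73 and 9.88 on the day 0 arrays. The difference of 0.84 ± 0.17 log2 (SE) had the lowest adjusted p of the 33 genes not called (limma adjusted p = 0.0952). Chst7, a 6-O-sulfotransferase, was 7.54 and 7.75 at day 15, against 8.36 and 8.57 at day 0. Here both day 15 arrays lay below both day 0 arrays, with a difference of -0.82 ± 0.18 log2 (SE; limma adjusted p = 0.132), the most negative of the 35. Chst3, the main 6-O-sulfotransferase of cartilage chondroitin, had overlapping days (7.97 and 7.48 at day 15, 8.07 and 7.32 at day 0).

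Sulfate at the 4-O position is added by Chst11, Chst12 and Chst13. Chst11, which growth plate cartilage of mice needs, was 11.37 and 11.85 at day 15, against 11.00 and 10.94 at day 0 (0.64 ± 0.21 log2, SE; limma adjusted p = 0.297). Chst13 was 9.40 and 9.56 at day 15 and 8.95 and 9.07 at day 0, while Chst12 overlapped between the days with a difference of -0.08 log2. Chst15, which adds a second sulfate to a 4-O-sulfated sugar, overlapped as well (-0.21 log2). Dse, the epimerase that turns chondroitin into dermatan sulfate, was 11.81 and 11.66 at day 15, against 12.01 and 12.29 at day 0 (-0.42 log2; limma adjusted p = 0.465).

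Over the 14 chondroitin genes the median difference was 0.00 log2, with 7 positive and 7 negative values. In 6 of them both day 15 arrays lay above both day 0 arrays, in 3 they lay below and in 5 the days overlapped. Over all genes 22.3% lay above and 17.8% below. For the 6 genes of chain start and elongation the median was 0.14 log2, and for the 8 of sulfation and epimerization it was -0.02 log2. Chsy3, Chst3, Chst7 and the heparan gene Sulf1 were the 4 of the 35 with a mean over the arrays below the median of all genes (8.72). At such levels background light may make a difference look smaller. Csgalnact1 also lay below this median on both day 0 arrays (8.23 and 7.74), and B3galt6, Slc35d1 and Papss2 did so on a single array.

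Among the 7 precursor genes of this step the sulfate side and the sugar side differed in their values. In all 4 genes of sulfate supply both day 15 arrays lay above both day 0 arrays (22.3% of all genes), with a median of 0.68 log2. In none of the 3 genes of sugar nucleotide supply was this so, and their median was -0.11 log2. None of the 7 was called by limma, and 3 had an unadjusted p below 0.05, as had 12.2% of all genes. The median of the step was 0.36 log2, the highest of the 4 steps. On a list of 15 further precursor genes, not split by side, both day 15 arrays lay above in 6 and below in 2. Among the 6 were Gfpt2 (1.07 log2) and Pgm3 (0.67 log2), which serve amino sugars. The contrast of the sides therefore describes the 7 genes of this step only.

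Papss2 makes PAPS, the sulfate donor of every sulfotransferase, and its loss gives the brachymorphic mouse with a short skeleton. It was 10.55 and 11.83 at day 15, against 8.67 and 9.35 at day 0. The days did not overlap, but replicate 2 was well above replicate 1 on both days. The difference was 2.18 ± 0.46 log2 (SE), or 4.53-fold, with a 95% interval of 1.05 to 3.30 (limma adjusted p = 0.113). Without day 15 replicate 1 the difference was 2.82 log2 and was called (limma adjusted p = 0.0410, with a range of 0.0111 to 0.341 over all alternatives).

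Papss1, the other PAPS synthase, was 10.86 and 10.74 at day 15, against 10.47 and 9.87 at day 0 (0.63 ± 0.24 log2, SE; limma adjusted p = 0.376). Its difference was 0.33 log2 without day 0 replicate 2 and 0.93 log2 without day 0 replicate 1. Slc26a2, the sulfate transporter of the cell membrane whose loss in humans causes chondrodysplasia, was 10.89 and 11.25 at day 15, against 10.47 and 10.22 at day 0. It differed by 0.73 ± 0.20 log2 (SE; limma adjusted p = 0.219). Slc35b2, which carries PAPS into the Golgi, differed by 0.36 log2 (95% interval -0.04 to 0.77).

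On the sugar side, Ugdh, which makes UDP-glucuronic acid, was 12.90 and 12.74 at day 15, against 13.06 and 13.12 at day 0. Both day 15 arrays were lower, by a small margin (-0.27 log2, 95% interval -0.68 to 0.14). Ugp2, which makes the UDP-glucose that Ugdh uses, differed by 0.02 log2. Slc35d1, which carries UDP-sugars into the endoplasmic reticulum, overlapped between the days (8.66 and 9.37 at day 15, 9.07 and 9.19 at day 0).

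**Figure D2:**
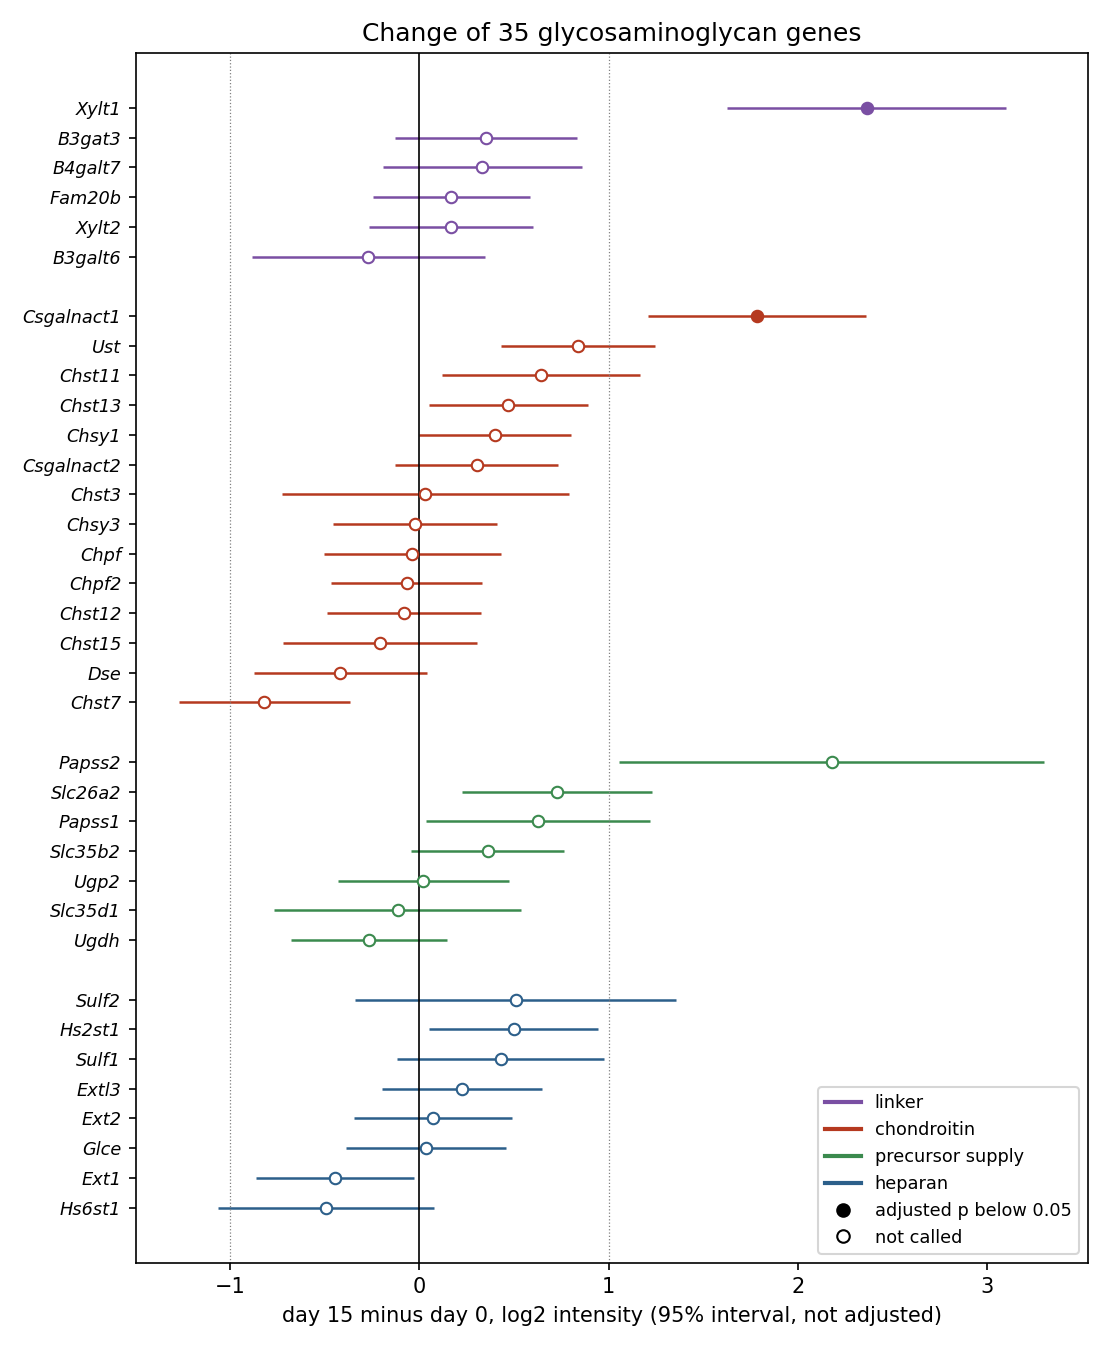
Day 15 minus day 0 difference (log2 intensity) of each gene with its 95% interval, not adjusted for the number of genes, by step. Filled circles mark the 2 genes called, Xylt1 (2.36) and Csgalnact1 (1.78), and dotted lines mark a difference of 1 log2 either way, within which 25 of the 35 intervals lie.

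The PAPS synthases had the widest gap in change of the gene pairs for which promoter windows were at hand. RefSeq lists a pair of transcription starts for each on GRCm38.p6, and the windows are shown because the arrays hold 1 probe set per gene and cannot say which start was used. Each runs 5′ to 3′ from 250 bases before to 50 bases after the start. Capitals mark exact matches on either strand to a SOX core, a GC box or a CCAAT box, spelled out after the windows, and no matches overlapped.
Papss2 start 1, chr19:32595465-32595764, + strand: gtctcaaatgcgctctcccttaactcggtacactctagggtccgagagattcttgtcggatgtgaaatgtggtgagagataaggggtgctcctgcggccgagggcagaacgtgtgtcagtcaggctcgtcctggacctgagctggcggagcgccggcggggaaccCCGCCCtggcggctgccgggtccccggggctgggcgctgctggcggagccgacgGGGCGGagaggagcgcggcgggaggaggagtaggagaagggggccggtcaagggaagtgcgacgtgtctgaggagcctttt
Papss2 start 2, chr19:32619755-32620054, + strand: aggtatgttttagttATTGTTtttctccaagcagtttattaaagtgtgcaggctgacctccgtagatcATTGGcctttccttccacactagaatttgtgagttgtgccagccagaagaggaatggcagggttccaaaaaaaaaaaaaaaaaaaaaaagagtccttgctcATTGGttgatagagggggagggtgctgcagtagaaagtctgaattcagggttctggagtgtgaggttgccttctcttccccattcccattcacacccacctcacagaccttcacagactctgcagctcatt
Papss1 start 1, chr3:131564518-131564817, + strand: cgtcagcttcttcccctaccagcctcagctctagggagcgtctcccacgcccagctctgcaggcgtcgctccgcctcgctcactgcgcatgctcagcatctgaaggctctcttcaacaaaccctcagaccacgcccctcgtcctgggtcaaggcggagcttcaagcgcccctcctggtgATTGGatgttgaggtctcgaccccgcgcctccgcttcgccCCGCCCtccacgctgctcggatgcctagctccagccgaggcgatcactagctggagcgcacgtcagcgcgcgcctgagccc
Papss1 start 2, chr3:131565782-131566081, + strand: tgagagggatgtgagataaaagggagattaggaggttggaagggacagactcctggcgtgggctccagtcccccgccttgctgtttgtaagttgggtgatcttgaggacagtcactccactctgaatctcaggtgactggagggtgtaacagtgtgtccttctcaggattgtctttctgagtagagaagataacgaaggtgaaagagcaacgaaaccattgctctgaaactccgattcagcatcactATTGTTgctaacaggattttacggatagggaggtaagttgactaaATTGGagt

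In both genes the first window was richer in G and C than the second. The first window of each had 66.3% G and C with 27 CpG, and the second had 44.3% with 1 CpG in Papss2 and 47.3% with 6 CpG in Papss1. Over 32851 such windows of the genome the medians were 52.7% and 7 CpG. A GC box, GGGCGG, was found in both first windows and in neither second one, and 35.7% of all windows hold one. The SOX core, searched as AACAAT, was found once in each second window, at -235 in Papss2 and -3 in Papss1 relative to the start, and 10.7% of all windows hold one. A CCAAT box, held by 37.4% of all windows, was found in 3 of these 4 (not in the first of Papss2). None held a TATA box, searched as TATAAA, which 13.6% of all windows have. Of the 36 genes 28 had a window in the table.

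Of the 8 heparan sulfate genes none was called by limma and 2 had an unadjusted p below 0.05, as had 12.2% of all genes. The differences of the 8 were the smallest in range, from -0.49 to 0.51 log2. Their median absolute difference, 0.44 log2, was the largest of the 4 steps (0.30 for the linker, 0.35 for chondroitin and 0.36 for precursor supply). Ext1 and Ext2 together form the polymerase of the chain. Ext1 was 11.80 and 11.99 at day 15, against 12.37 and 12.31 at day 0 (-0.45 ± 0.17 log2, SE; limma adjusted p = 0.374). Ext2 overlapped between the days (12.50 and 12.47 at day 15, 12.51 and 12.32 at day 0). Extl3, which adds the first sugar that commits the linker to heparan sulfate, differed by 0.23 log2 with a 95% interval of -0.20 to 0.65.

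Of the enzymes that modify the chain, Hs2st1, a 2-O-sulfotransferase, was 11.24 and 11.01 at day 15, against 10.71 and 10.54 at day 0 (0.50 log2; limma adjusted p = 0.350). Hs6st1, a 6-O-sulfotransferase, lay the other way, at 9.96 and 10.39 at day 15, against 10.48 and 10.85 at day 0 (-0.49 log2; limma adjusted p = 0.50). The epimerase Glce overlapped, with a difference of 0.03 log2. Sulf1 and Sulf2 remove 6-O-sulfate outside the cell. Sulf1 was 7.57 and 7.07 at day 15 and 6.96 and 6.82 at day 0. Sulf2 was 12.35 and 12.52 at day 15, against 12.44 and 11.42 at day 0, so its difference of 0.51 log2, the largest of the step, came with day 0 replicates that were far apart. The median of the 8 genes was 0.15 log2.

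The steps were also compared by array, as the median over a step's genes of the value relative to the gene's day 0 mean. For precursor supply this was 0.43 and 0.29 at day 15, against -0.03 and 0.03 at day 0. For the linker it was 0.31 and 0.11 at day 15, against 0.02 and -0.02 at day 0. For heparan it was 0.22 and 0.09 at day 15, against 0.07 and -0.07 at day 0, and for chondroitin it was 0.16 and -0.01 at day 15, against -0.03 and 0.03 at day 0. The days did not overlap for precursor supply, the linker and heparan, and they overlapped for chondroitin. For heparan the days were barely apart, at 0.09 against 0.07. The 2 day 0 values of a step mirror each other around 0 by construction, and other sets of genes were not compared in this way. On each step replicate 1 had the higher day 15 value.

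Several steps are served by 2 related genes, and 9 such pairs were compared by the difference between the genes on each array, set relative to its day 0 mean. For Xylt1 minus Xylt2 this was 1.77 and 2.62 at day 15, against 0.09 and -0.09 at day 0. For Csgalnact1 minus Csgalnact2 it was 1.30 and 1.67 at day 15, against 0.36 and -0.36 at day 0. For Papss1 minus Papss2 it was -0.85 and -2.25 at day 15, against 0.64 and -0.64 at day 0. In these pairs the days did not overlap, so the changes of the 2 genes were unequal on these arrays.

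The difference in change was 0.85 log2 for Chst3 minus Chst7, 0.72 for Chst11 minus Chst12, 0.42 for Chsy1 minus Chsy3 and -0.52 for Ext1 minus Ext2, again without overlap of the days. It was 0.03 log2 for Chpf minus Chpf2 and -0.08 for Sulf1 minus Sulf2, where the days overlapped. With 2 arrays against 2, a 2-sided exact permutation test cannot go below p = 0.333, so no pair could pass. The 7 pairs without overlap reached this p (0.429 after Benjamini-Hochberg adjustment over the 9 pairs). Separation of the days in a pair therefore carries little weight by itself. Other pairs of genes were not compared, so no share without overlap is at hand to set beside 7 of 9.

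**Figure D3:**
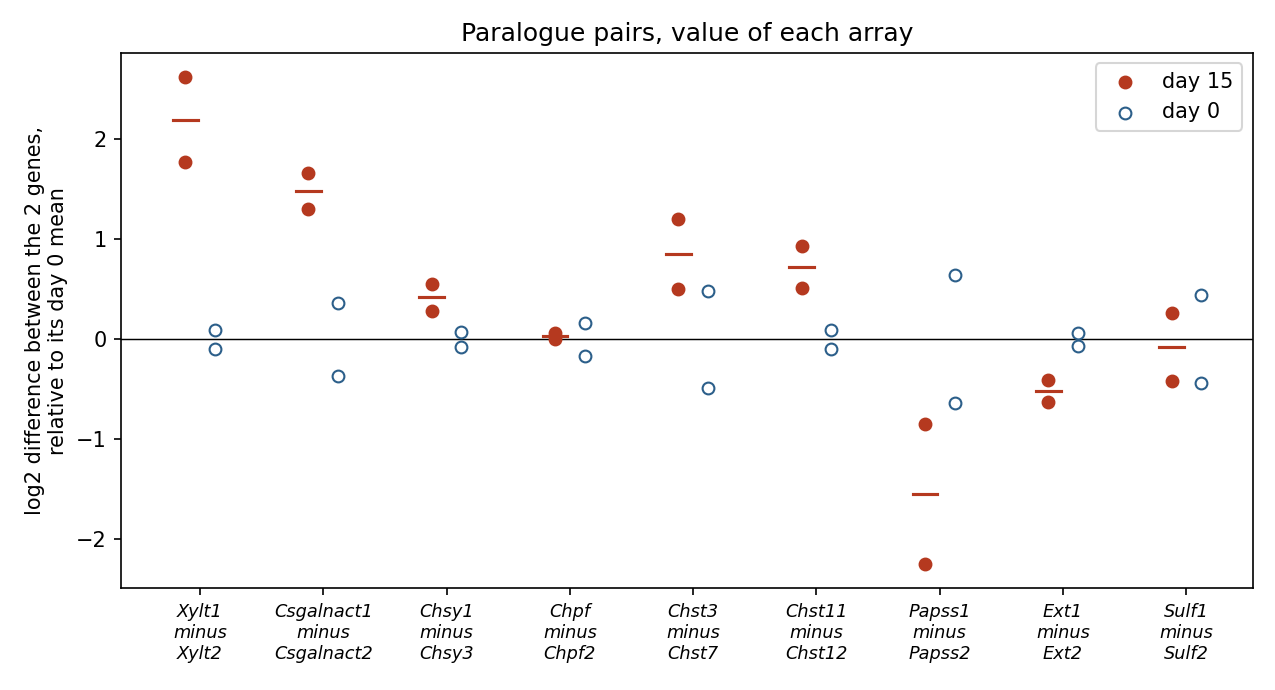
Log2 difference between the 2 genes of each pair on each array, relative to its day 0 mean, with filled circles for day 15, open circles for day 0 and a bar at the day 15 mean. The Xylt pair (2.20) and the Csgalnact pair (1.48) stand highest and the Papss pair (-1.55) lowest.

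The chains are carried by core proteins. Of 11 chondroitin and dermatan sulfate carriers 2 rose and none fell, where 1.30% of all genes were called as higher and 0.411% as lower. Of these 2, Acan is also on the list of cartilage markers above. Acan, the aggrecan core protein of cartilage, was 10.22 and 11.56 at day 15, against 7.50 and 7.22 at day 0 (limma adjusted p = 0.0233). Vcan, the versican core protein, was 10.13 and 10.41 at day 15, against 8.46 and 7.43 at day 0, which is 5.01-fold (limma adjusted p = 0.0444). It was not called without day 15 replicate 1 (limma adjusted p = 0.122) or day 15 replicate 2 (0.135). Dcn, the decorin core protein, named here after its values were seen, was 13.65 and 13.47 at day 15, against 8.10 and 11.27 at day 0, and was not called (limma adjusted p = 0.164). The median of the 11 was 0.28 log2.

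Of the 13 measured heparan sulfate core proteins none was called by limma and 3 had an unadjusted p below 0.05, as had 12.2% of all genes. The median of the 13 was 0.17 log2. Hspg2, the perlecan core protein, was 10.40 and 12.03 at day 15, against 12.33 and 12.17 at day 0. Only day 15 replicate 1 was clearly lower (-1.04 ± 0.51 log2, SE; limma adjusted p = 0.527), and without day 15 replicate 2 the difference was called at -1.85 log2 (0.0375, with a range of 0.0375 to 0.899 over all alternatives). Gpc1, a glypican, was 12.82 and 13.13 at day 15, against 12.08 and 12.38 at day 0 (limma adjusted p = 0.209).

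Genes that break chains down held 1 called member of 15, which fell, against 1.72% of all genes called. Cemip, a hyaluronan-binding protein needed for hyaluronan breakdown in fibroblasts, was 11.47 and 11.77 at day 15, against 12.94 and 13.06 at day 0. It fell by 1.38 on the log2 scale (limma adjusted p = 0.0305), and the call was lost when any 1 array was left out (0.0577 to 0.117). The lysosomal enzyme Naglu was 11.71 and 11.37 at day 15, against 10.63 and 10.22 at day 0 (1.12 ± 0.22 log2, SE; limma adjusted p = 0.0989).

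In 10 of these 15 genes both day 15 arrays lay above both day 0 arrays and in 4 they lay below, with a median of 0.48 log2 (22.3% and 17.8% of all genes, median 0.02 log2). Of these 15, 10 had an unadjusted limma p below 0.05, 7 as higher and 3 as lower, as had 12.2% of all genes. Among the macrophage markers the lysosomal enzyme Lyz2 was 11.07 and 10.38 at day 15, against 10.19 and 8.88 at day 0, without overlap. The lysosomal membrane protein Cd68 was 10.66 and 9.24 at day 15, against 9.41 and 8.10 at day 0, so the days overlapped while day 15 was higher within each replicate number. Their part in the values of the breakdown genes was not tested. The summed level of all 12 markers overlapped between the days and was likewise higher at day 15 within each replicate number.

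**Figure D4:**
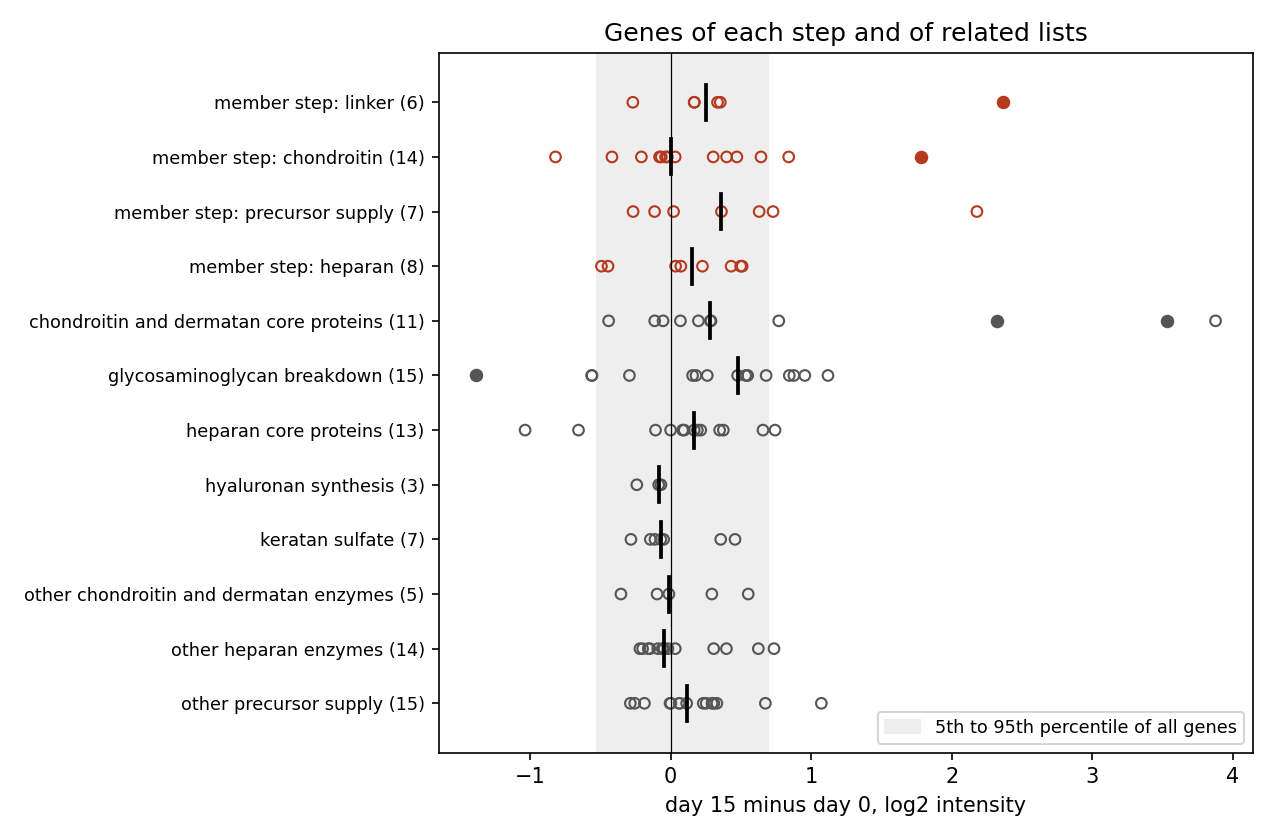
Day 15 minus day 0 difference (log2 intensity) of every measured gene of the 4 steps (red) and of related lists (grey), with filled circles for called genes, a bar at each list's median and a band from the 5th to the 95th percentile of all genes (-0.53 to 0.69). Called genes appear in the linker, chondroitin, core protein and breakdown rows.

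Genes listed as further enzymes of these chains or of hyaluronan had no call by limma. An unadjusted p below 0.05 was found for 12.2% of all genes. It was found for 1 gene of the chondroitin and dermatan list, 2 of the heparan list and 0 of the hyaluronan list. On the list of 5 other chondroitin and dermatan enzymes Chst8 (0.55 log2) and the xylose phosphatase Pxylp1 (-0.35 log2) differed most, and the median was -0.01 log2. Chst8 is not an established enzyme of these chains. Of 14 other heparan enzymes the largest differences were 0.73 log2 for Extl1 and 0.62 log2 for Extl2 (limma adjusted p = 0.232 and 0.221), and the median was -0.05 log2. The 3 hyaluronan synthases had overlapping days, with differences of -0.24 log2 for Has2, -0.09 for Has1 and -0.07 for Has3.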

How the data were processed

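RNA of 4 ATDC5 samples, 2 at day 15 and 2 at day 0, was measured on 1-colour arrays with a biotin label, per the labels' protocols. The authors deposited processed intensities, 1 for each probe set on each array, on a linear scale from 0.72 to 23103. How they corrected background, summarized probes and scaled arrays is not given in the sources used here, and the genome build was mm9, per the submitters' processing notes.

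Of 35512 probe sets 21789 carry 1 gene symbol, 1621 several and 12102 none. Only the first were tested, with symbols updated through gene identifiers (GRCm38.p6 gene table, 21698 matched) and the brightest of a gene's probe sets kept, which gave 19938 genes. Array medians of log2 intensity plus 1 differed by up to 0.20, and the values were quantile normalized over all probe sets. Day 15 was compared with day 0 by limma 3.58.1 in R 4.3.3 (group as the only term), adjusted by Benjamini-Hochberg over all genes. SE is limma's moderated standard error, intervals are at 95%, and folds are on the log2 intensity plus 1 scale. No detection call was used, and the number of arrays limits the precision. No arrays held identical values.

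The genes and lists were chosen with earlier results of these data known. Every measured gene of the 35 is named, with all arrays for called genes and for the 2 largest differences of a step; other lists give their called genes, or the 2 largest differences where fewer than 2 were called. Further genes were named after their values were seen. Alternatives were the deposited scaling, median centring, trend and robust hyperparameters, a filter at the median level, a pseudocount of 16, the mean of probe sets, all probe sets in 1 test, a replicate block and leaving out each array. Promoter windows are RefSeq's (GRCm38.p6). Figures used matplotlib 3.10.9 in Python 3.11.15.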

Additional observations from a re-analysis of the deposited data

How the results depend on the processing

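The calls of Xylt1 and Csgalnact1 were kept under the deposited scaling, median centring, trend and robust hyperparameters, and a pseudocount of 16. They were also kept under the filter at the median level, the mean of probe sets and the replicate block (limma adjusted p 0.00919 to 0.0292 over all of these). Csgalnact1 had a day 0 mean of 7.99, below the median level of 8.72, so it passed the filter through its day 15 arrays. Each of the 35 genes has 1 probe set, so the mean of probe sets left their differences unchanged and is no separate check. With all probe sets in 1 test, 69 probe sets were higher and 5 lower and 0 of the 35 genes were called; Acan, Vcan and Cemip lost their calls too (0.144, 0.201 and 0.136). With the replicate number as a block, 440 genes were higher and 188 lower (342 called in all without it, 628 with it). The block called Papss2 (limma adjusted p = 0.0111) and Naglu (0.0263) in addition. The labels do not say what a replicate number shares, and deviations of same-numbered arrays correlated at 0.40 across genes. Leaving out 1 array gave 149 to 219 genes higher, 29 to 65 lower and 0 to 2 of the 35 genes called higher. It moved the medians over a range of -0.015 to 0.16 log2 for chondroitin, -0.013 to 0.22 for heparan and 0.11 to 0.31 for the linker. These fits take the spread of the day with 1 array from the pair of the other day. With the filter, which left out 3 chondroitin genes, that median was 0.30 log2, and pairs with a filtered gene had no value. Median centring turned Ugp2 to -0.0086 log2. Leaving out 1 array turned the sign of uncalled genes, over ranges of -0.60 to 0.058 for B3galt6, -0.21 to 0.14 for Chpf, -0.34 to 0.41 for Chst3, -0.12 to 0.073 for Chsy3, -0.025 to 0.17 for Ext2, -0.045 to 0.11 for Glce, -0.24 to 0.064 for Has1, -0.57 to 0.082 for Has2, -0.47 to 0.24 for Slc35d1, -0.0018 to 1.02 for Sulf2 and -0.10 to 0.14 for Ugp2. The cause was not tested.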

Other observations

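Amino sugars are the other building block of these chains. Of 15 measured genes of further precursor supply none was called by limma and 2 had an unadjusted p below 0.05, as had 12.2% of all genes. Gfpt2, which starts the hexosamine pathway, was 9.57 and 9.85 at day 15, against 8.95 and 8.32 at day 0 (limma adjusted p = 0.159). Pgm3, a later enzyme of that pathway, was 11.53 and 11.10 at day 15, against 10.93 and 10.35 at day 0 (limma adjusted p = 0.389). The median of the 15 was 0.11 log2.

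Keratan sulfate is the other sulfated chain of aggrecan, and its 7 measured genes had a median of -0.07 log2. None was called by limma and 0 had an unadjusted p below 0.05, against 12.2% of all genes. B3gnt2, which extends lactosamine chains, was 10.66 and 10.57 at day 15, against 9.89 and 10.43 at day 0. The galactosyltransferase B4galt1 was 11.83 and 11.94 at day 15, against 11.58 and 11.48 at day 0. In both genes the day 15 arrays lay above the day 0 arrays, and the adjusted p was 0.533 and 0.497 (limma).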
